A study of Mus musculus with 4 samples.

Results

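Among 10 genes of the cardiac sarcomere and of cardiac transcription, the transcript of cardiac troponin C, Tnnc1, reached 217 FPKM in all-trans retinoic acid (ATRA)-treated mouse embryoid bodies at 10 days, while Myh6, Actn2 and Nkx2-5 stayed below 1 FPKM in all 4 libraries. The 10 genes were taken as a named list (Tnnc1, Tnnt2, Myl4, Myl7, Myh6, Myh7, Actn2, Des, Hand1 and Nkx2-5), out of 9997 symbols in the table. Each of the 10 had a single row. FPKM is fragments per kilobase of transcript, scaled to the mapped fragments of the library, so levels of different genes can be set side by side within a library.

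The libraries came from embryoid bodies, the suspension aggregates formed by embryonic stem cells, of the mouse line ES-E14TG2a. There were 4 groups of 1 library each: control embryoid bodies, and embryoid bodies with ATRA at 0, 6 and 10 days. ATRA, the signalling form of vitamin A, was used at 5 µM to direct the cells to neurons and was added on days 4 and 6 of embryoid body culture in medium with serum. The series' design text places these stages after 4 days of ATRA. After 8 days of culture the embryoid bodies were moved to dishes coated with poly-ornithine and laminin. The labels do not give the culture age of the control or which libraries preceded the transfer, so ATRA, culture age and the coated dish cannot be told apart. With 1 library per group there is no replicate check, no test was run, and every difference describes these libraries.

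In heart muscle, force is made by the sarcomere, in which myosin thick filaments pull on actin thin filaments. Calcium binding to troponin C moves the troponin complex, in which troponin T anchors the complex to tropomyosin, and so opens the thin filament to myosin. Myosin has heavy chains that form the motor and light chains that bind its neck, alpha-actinin crosslinks the thin filaments at the Z-disc, and desmin filaments link the Z-discs of neighbouring myofibrils. Several of these genes are not particular to the heart: Tnnc1 and Myh7 are also used by slow skeletal muscle, desmin by all muscle, and Hand1 by trophoblast giant cells and extraembryonic mesoderm.

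To show the sequence context of genes whose levels differed most within a shared structure, the 250 bases before the start of 4 genes are given, from RefSeq on GRCm38.p6. The 2 troponin genes shared a late rise but not a level, and Myl7 rose late while Myh6 stayed low. Capitals mark matches to the M-CAT core CATTCC (read on either strand, a motif bound by TEAD factors), to GATAAG (either strand, bound by GATA factors) and to the CArG box (bound by serum response factor). The Tnnc1 window is chr14:31208062-31208311 (plus strand), the Tnnt2 window chr1:135836084-135836333 (plus strand, the first of 2 listed starts), the Myl7 window chr11:5898783-5899032 (minus strand) and the Myh6 window chr14:54966608-54966857 (minus strand).
Tnnc1: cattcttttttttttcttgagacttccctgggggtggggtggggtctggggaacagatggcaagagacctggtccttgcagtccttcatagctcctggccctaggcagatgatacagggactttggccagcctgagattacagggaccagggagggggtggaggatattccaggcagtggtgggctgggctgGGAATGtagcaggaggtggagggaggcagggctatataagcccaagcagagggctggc
Tnnt2: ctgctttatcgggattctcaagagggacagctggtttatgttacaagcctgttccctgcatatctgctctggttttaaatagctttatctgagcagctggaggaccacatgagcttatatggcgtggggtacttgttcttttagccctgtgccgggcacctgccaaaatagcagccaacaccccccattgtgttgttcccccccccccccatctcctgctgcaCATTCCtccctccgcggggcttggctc
Myl7: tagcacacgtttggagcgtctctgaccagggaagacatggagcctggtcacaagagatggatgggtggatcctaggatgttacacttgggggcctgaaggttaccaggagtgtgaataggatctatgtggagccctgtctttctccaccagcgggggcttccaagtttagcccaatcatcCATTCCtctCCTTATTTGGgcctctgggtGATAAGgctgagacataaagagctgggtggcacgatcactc
Myh6: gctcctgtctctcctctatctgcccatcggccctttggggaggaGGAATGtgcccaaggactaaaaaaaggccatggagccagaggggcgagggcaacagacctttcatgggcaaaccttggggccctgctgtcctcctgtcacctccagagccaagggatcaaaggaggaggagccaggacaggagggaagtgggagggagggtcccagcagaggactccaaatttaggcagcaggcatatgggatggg

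Each of these 4 windows held 1 M-CAT core. It lay 58 to 53 bases before the start in Tnnc1, 27 to 22 in Tnnt2, 70 to 65 in Myl7 and 206 to 201 in Myh6. The promoter table matched 9 of the 10 genes, with 11 windows, and 5 genes held the core in a window, the fifth being Myh7 at one of its 2 starts. Of 32851 mouse promoter windows of the same length, 12.6% held it. GATAAG was found in Myl7 and Des (6.55% of all windows) and the CArG box in Myl7 alone (1.47% of all windows). These 2 motifs do not overlap each other or the M-CAT core there. No window of the 9 genes held TATAAA on the strand of the gene (7.59% of all windows). The motifs were chosen after the sequences had been read, and a match is a description of letters. The core was present in Myh6, which stayed below 1 FPKM, as well as in Tnnc1.

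The libraries held an estimated 24500000 to 27300000 fragments, from the FPKM worth of 1 fragment in 1377 genes with 1 annotated transcript. Intervals given with levels below are exact Poisson 95% intervals on the fragments so estimated, and cover counting error only. Pou5f1, the core pluripotency factor, was at 1241 FPKM in the control and at 97.4, 150 and 141 FPKM at 0, 6 and 10 days. Each difference is one of log2(FPKM + 1), which shrinks the change of genes near or below 1 FPKM, and calls of higher or lower need 2-fold or more on that scale. A gene entered the comparisons if it reached 1 FPKM in at least 1 library, as 5885 symbols did. Of the 10 cardiac genes 7 did so, and Tnnt2 and Myh7 passed only through the 10-day library, so a late rise of these 2 is in part built into the filter.

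Tnnc1 (mm10 chromosome 14, 31208312 to 31211729, plus strand) had the highest level of the 10 genes at 6 and 10 days. It was at 1.54 FPKM in the control, 2.05 FPKM at 0 days, 45.7 FPKM at 6 days and 217 FPKM at 10 days. The control and 0-day libraries were both low, and their intervals of 1.01 to 2.22 and 1.46 to 2.80 FPKM overlapped. Its log2 difference was 3.94 at 6 days against 0 days, the 15th highest of 5885 genes, and 2.22 at 10 days against 6 days, the 23rd highest. In FPKM the last step was 4.75-fold. Tnnc1 made up 63.5% of the summed FPKM of the 10 genes at 10 days, against 2.37% in the control. The annotated Nisch gene, on the other strand, spans all 3418 bases of Tnnc1, and no source used here says whether reads were assigned by strand. Nisch was at 44.5 FPKM in the control and at 73.1, 70.5 and 68.5 FPKM at 0, 6 and 10 days.

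Tnnt2, cardiac troponin T (chromosome 1, 135836354 to 135852260, plus strand), rose in the same steps at a far lower level. It was at 0.147 FPKM in the control, 0.0484 FPKM at 0 days, 0.911 FPKM at 6 days and 3.09 FPKM at 10 days. The first 2 of these rest on an estimated 4 and 2 fragments and their intervals overlapped. The 10-day interval, 2.51 to 3.75 FPKM, lay above that at 6 days, 0.615 to 1.34 FPKM, and the log2 difference was 1.10. Although both proteins sit in 1 complex, the FPKM of Tnnc1 was 70.2 times that of Tnnt2 at 10 days and 50.1 times at 6 days. Tnni1, the troponin I of slow skeletal muscle and of the embryonic heart, was at 0.156 FPKM in the control and 0.393, 2.12 and 8.77 FPKM at 0, 6 and 10 days, between the other two at 6 and 10 days.

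**Figure D1:**
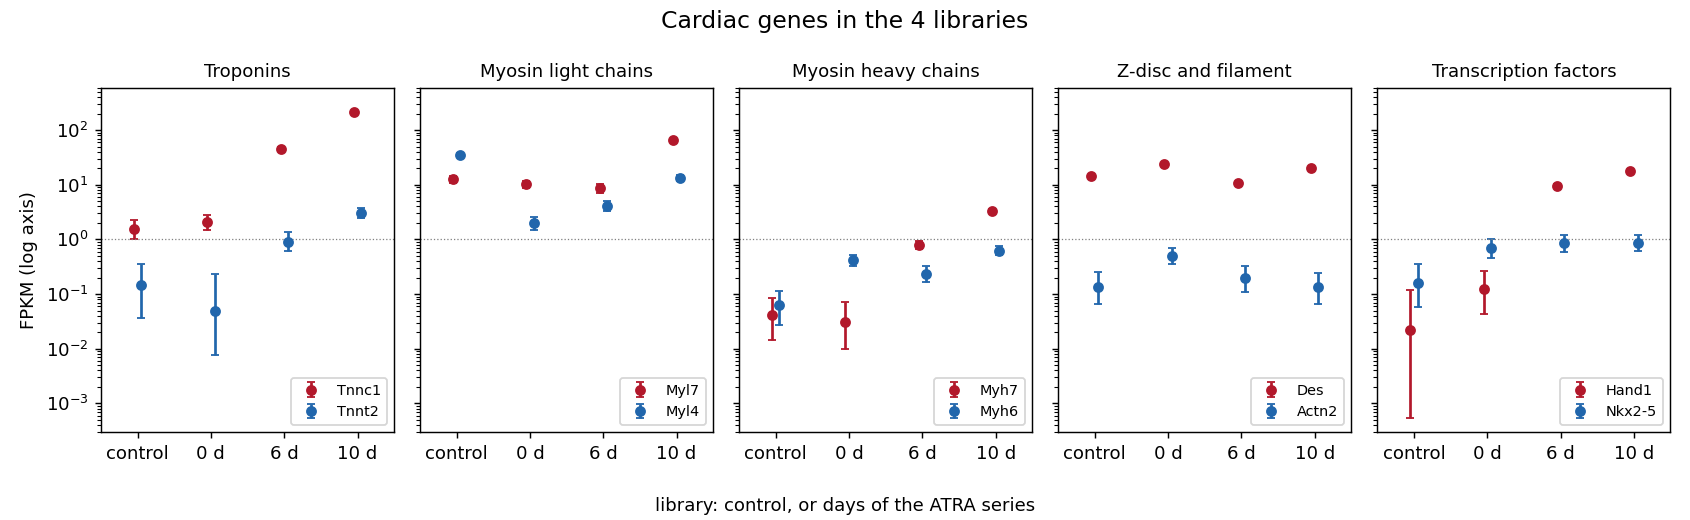
FPKM (log axis) of the 10 cardiac genes in the control and in the ATRA series at 0, 6 and 10 days, 1 library each; bars are exact Poisson 95% intervals on estimated fragments and the dotted line marks 1 FPKM. Tnnc1 stands at 217 FPKM and Tnnt2 at 3.09 FPKM at 10 days, Myl4 is highest in the control at 35.6 FPKM, and Actn2, Myh6 and Nkx2-5 lie below the dotted line throughout.

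The 2 atrial-type myosin light chains stood in opposite order in the control and in the ATRA series, and both were higher at 10 days against 6 days. Myl7, the regulatory light chain of the atrium and early heart tube (chromosome 11, 5896637 to 5898782, minus strand), was at 12.7 FPKM in the control, 10.2 FPKM at 0 days, 8.57 FPKM at 6 days and 65.7 FPKM at 10 days. The 10-day library stood above the other 3. Of these, the 6-day interval of 7.12 to 10.2 FPKM lay below the control interval of 10.9 to 14.7 FPKM. Its log2 difference of 2.80 at 10 days against 6 days was the 19th highest of 5885, a 7.66-fold difference in FPKM.

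Myl4, the essential light chain of the atrium and of embryonic muscle (chromosome 11, 104550663 to 104595753, plus strand), had its highest level in the control. It was at 35.6 FPKM in the control, 1.98 FPKM at 0 days, 4.12 FPKM at 6 days and 13.3 FPKM at 10 days. The log2 difference of -3.62 at 0 days against the control was the 32nd lowest of 5885, and the 10-day library stayed 1.36 below the control on that scale. GENCODE lists 8 transcripts for Myl4, and the single row does not say which one was present in each library. The FPKM of Myl7 was 4.94 times that of Myl4 at 10 days and 0.357 times in the control.

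The myosin heavy chains stayed low. Myh7, the beta heavy chain of the ventricle before birth and of slow skeletal muscle (chromosome 14, 54970684 to 54994626, minus strand), was at 0.0406 FPKM in the control, 0.0315 FPKM at 0 days, 0.795 FPKM at 6 days and 3.33 FPKM at 10 days. The estimated fragments behind these values were 6, 5, 125 and 567. The 10-day interval of 3.07 to 3.62 FPKM lay above the 6-day interval of 0.663 to 0.948 FPKM, and the log2 difference between them was 1.27.

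Myh6, the alpha heavy chain of the atrium and adult mouse ventricle (chromosome 14, 54941921 to 54966927, minus strand), was at 0.0620 FPKM in the control, 0.416 FPKM at 0 days, 0.235 FPKM at 6 days and 0.624 FPKM at 10 days. It was highest at 10 days, with an interval of 0.509 to 0.755 FPKM against 0.322 to 0.528 FPKM at 0 days, which overlap. Of the 50-base windows of the main Myh7 transcript, 22.2% also occur in that of Myh6, so some reads of this neighbouring pair can fit both. No source used here says how such reads were divided, and the Myh6 values may hold reads of Myh7. Mhrt, the antisense transcript of Myh7, was listed at 0 in the first 3 libraries and was at 0.0708 FPKM at 10 days.

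Desmin stayed within a 2.26-fold range and alpha-actinin below 1 FPKM. Des (chromosome 1, 75360329 to 75368579, plus strand) was at 14.4 FPKM in the control, 23.8 FPKM at 0 days, 10.6 FPKM at 6 days and 20.4 FPKM at 10 days. It was present in every library and fell at 6 days against 0 days, by 1.10 on the log2 scale. At 10 days against 6 days its log2 difference was 0.89, short of 2-fold, with intervals of 19.5 to 21.4 FPKM at 10 days and 9.84 to 11.3 FPKM at 6 days that do not overlap. Actn2, the muscle alpha-actinin of the Z-disc (chromosome 13, 12269426 to 12340760, minus strand), was at 0.132 FPKM in the control, 0.507 FPKM at 0 days, 0.200 FPKM at 6 days and 0.133 FPKM at 10 days. Its highest library was the 0-day one, with an interval of 0.360 to 0.686 FPKM. At 10 days an estimated 11 fragments gave an interval of 0.0668 to 0.239 FPKM, close to that of the control.

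Of the 2 transcription factors, Hand1 rose and Nkx2-5 stayed below 1 FPKM. Hand1, a basic helix-loop-helix factor (chromosome 11, 57828705 to 57832818, minus strand), was at 0.0222 FPKM in the control, 0.123 FPKM at 0 days, 9.44 FPKM at 6 days and 17.5 FPKM at 10 days. The control and 0-day values rest on an estimated 1 and 6 fragments. Its log2 difference of 3.22 at 6 days against 0 days was the 28th highest of 5885. At 10 days against 6 days it was 0.83, short of 2-fold. Nkx2-5, the homeobox factor of cardiac progenitors and cardiomyocytes (chromosome 17, 26838664 to 26845009, minus strand), was at 0.159 FPKM in the control and at 0.695, 0.864 and 0.864 FPKM at 0, 6 and 10 days. The 3 ATRA libraries had overlapping intervals, with lower ends of 0.463 FPKM or more, and the control interval ended at 0.349 FPKM.

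The calls of the 7 genes are set here beside those of all genes, step by step from the last. At 10 days against 6 days 5 of the 7 were higher (Tnnc1, Tnnt2, Myl4, Myl7 and Myh7) and none was lower, where 3.70% of the 5885 genes were higher and 0.850% lower. Tnnt2 and Myh7 are among the 7 only through the 10-day library, so their place in this count is in part built into the filter. With a filter at 5 FPKM, 3 of 5 were higher (Tnnc1, Myl4 and Myl7), where 4.10% of 4508 genes were higher. The median log2 difference was 1.27 over the 7, the value of Myh7 itself, and 0.02 over all 5885. At 6 days against 0 days 2 of the 7 were higher (Tnnc1 and Hand1) and Des was lower, where 8.22% of all genes were higher and 4.88% lower. That count of higher genes depended on the pseudocount: with 0.1 FPKM added in place of 1 it was 5, through Tnnt2, Myl4 and Myh7. At 0 days against the control none of the 7 was higher and Myl4 was lower, where 12.2% of all genes were higher and 12.8% lower, a share near the background.

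Over the longer spans, at 10 days against 0 days 6 of the 7 were higher, Des being the exception at a log2 difference of -0.21, where 14.4% of all genes were higher and 7.60% lower. At 10 days against the control 5 were higher and Myl4 was lower, where 19.6% of all genes were higher and 17.1% lower. Both counts of higher genes include Tnnt2 and Myh7, with the same limit of the filter. With a filter at 5 FPKM, 4 of 5 were higher against 0 days and 3 of 5 against the control. The shares of all genes higher were then 14.8% and 19.1%. On the log2(FPKM + 1) scale Tnnc1 differed by 6.16 from 0 days and by 6.43 from the control, and Hand1 by 4.04 and 4.18. The order of these 2 depends on the pseudocount: with 0.1 FPKM added, Tnnc1 differed by 7.05 and Hand1 by 7.17 from the control. These comparisons share libraries with the single steps. The list was drawn up with results of these data known, so the counts describe the genes and are no independent evidence.

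**Figure D2:**
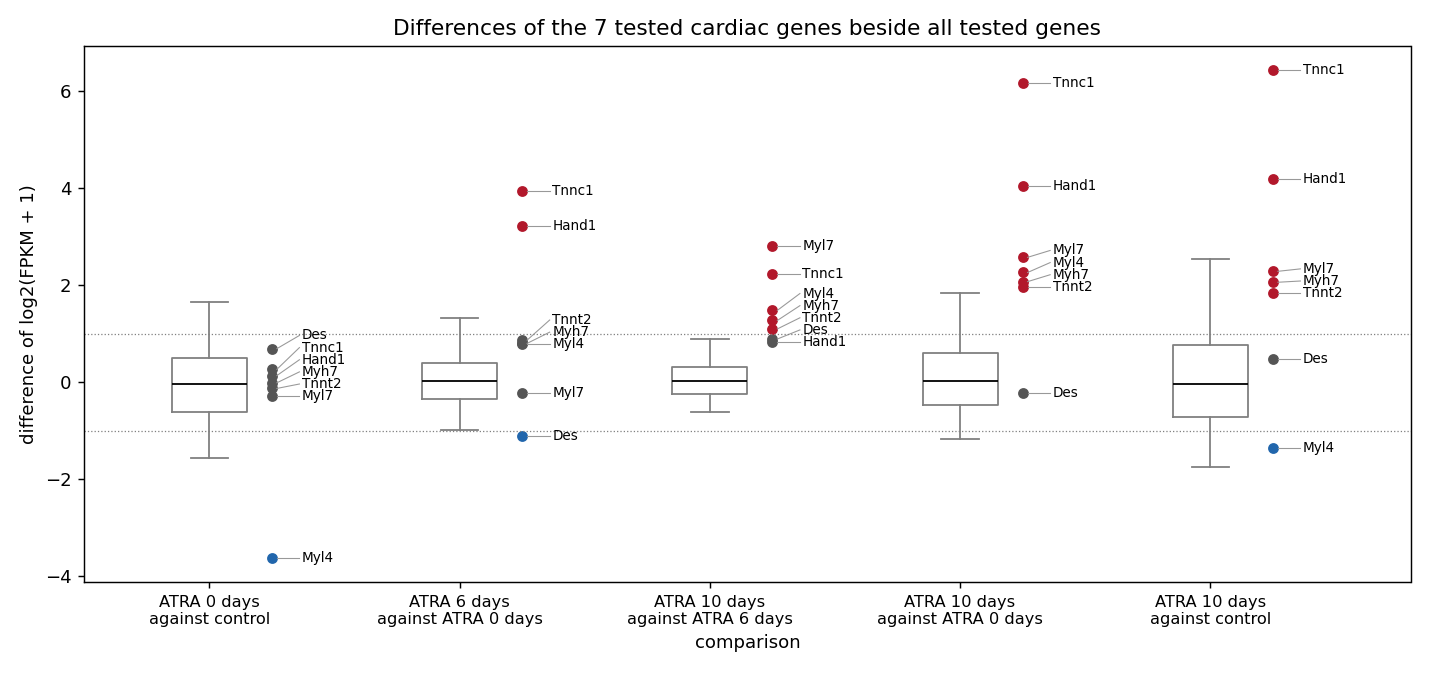
Differences of log2(FPKM + 1) in 5 comparisons, for the 7 cardiac genes that reached 1 FPKM (points, red if 2-fold or more higher and blue if 2-fold or more lower) beside all 5885 genes (boxes: quartiles and median; whiskers: 5th and 95th percentiles). At 10 days against 6 days 5 of the 7 points lie at or above the dotted 2-fold line, and Myl4 is the low point at 0 days against the control. Among those 5, Tnnt2 and Myh7 reached 1 FPKM only at 10 days.

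Further sarcomere genes of heart and skeletal muscle were measured in part, with 12 of 35 in the table. The table holds almost only genes of chromosomes 1 and 10 to 18, so absence from it says nothing of a gene's level. Of these 12, 8 stayed below 1 FPKM in every library. They include Mybpc1, Mybph, Myoz1 and Myoz3, known mainly from skeletal muscle, and Tcap, which caps titin at the Z-disc, and Myom1, which links thick filaments at the M-band. Of the 4 that passed, 2 were higher at 10 days against 6 days and none lower, beside 3.70% and 0.850% of all genes. Their median log2 difference was 0.88. It rests in part on Ldb3, which passed only through the 10-day library, so its rise is in part built into the filter. Fhl2, a LIM-domain protein abundant in heart, was at 0.929 FPKM in the control and 2.94, 24.2 and 52.9 FPKM at 0, 6 and 10 days. With Tnni1 it made up the 2 higher genes. Ldb3, a Z-disc protein, was at 1.56 FPKM at 10 days and 0.618 FPKM at 6 days, and Unc45b, a myosin chaperone, was at 1.61 FPKM at 10 days and 1.78 FPKM at 6 days.

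Called differences of cardiac transcription factors fell in the earlier steps. Of 11 that passed the filter, of 15 in the table, 3 were higher and 1 lower at 6 days against 0 days, and none differed 2-fold at 10 days against 6 days. Gata4, a zinc finger factor of heart and endoderm, was at 6.53 FPKM in the control and 17.7, 92.1 and 90.6 FPKM at 0, 6 and 10 days. Its relative Gata6 was at 3.92 FPKM in the control and 16.8, 26.7 and 27.1 FPKM in the ATRA series. Tcf21, a factor of the epicardium and other mesothelia, was listed at 0 in the control and was at 0.566, 2.94 and 3.29 FPKM, and Tbx2 was at 0.153 FPKM in the control and 3.93, 4.03 and 3.42 FPKM. Foxh1, a partner of Smad proteins in nodal signalling, was at 57.7 FPKM in the control and 37.1, 15.1 and 9.59 FPKM, and was the 1 that fell at 6 days against 0 days. Irx4, a factor of the ventricle, was at 0.0153 FPKM in the control and 0.194, 0.794 and 2.12 FPKM, and Isl1, a factor of cardiac progenitors and motor neurons, was at 0.0964 FPKM in the control and 0.0869, 1.996 and 0.678 FPKM. Mef2c, a core factor of muscle, did not exceed 0.232 FPKM, and Myocd, the coactivator of serum response factor, did not exceed 0.363 FPKM.

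Genes of calcium handling and excitation showed no common direction. Of 8 that passed, of 18 in the table, 1 was higher and 1 lower at 10 days against 0 days (median 0.20). Of all genes 14.4% were higher and 7.60% lower there (median 0.02), so these counts are near the background. Ryr2 passed only through the 10-day library. Gja1, the gap junction protein connexin 43, was at 26.2 FPKM in the control and 25.4, 86.0 and 81.7 FPKM at 0, 6 and 10 days. Gjc1, connexin 45, was at 31.2 FPKM in the control and 31.1, 12.0 and 5.84 FPKM. Srl was at 5.35 FPKM in the control and 2.54, 1.85 and 0.802 FPKM. Cacna1g was at 0.0224 FPKM in the control and 1.63, 1.28 and 1.60 FPKM. Hcn2, a pacemaker channel, was highest at 10 days and in the control, at 4.03 and 3.99 FPKM. Pln, phospholamban, which restrains the calcium pump of the sarcoplasmic reticulum, did not exceed 0.0755 FPKM, and Ryr2, the cardiac calcium release channel, was at 0.869 FPKM in the control and 0.361, 0.612 and 1.40 FPKM.

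**Figure D3:**
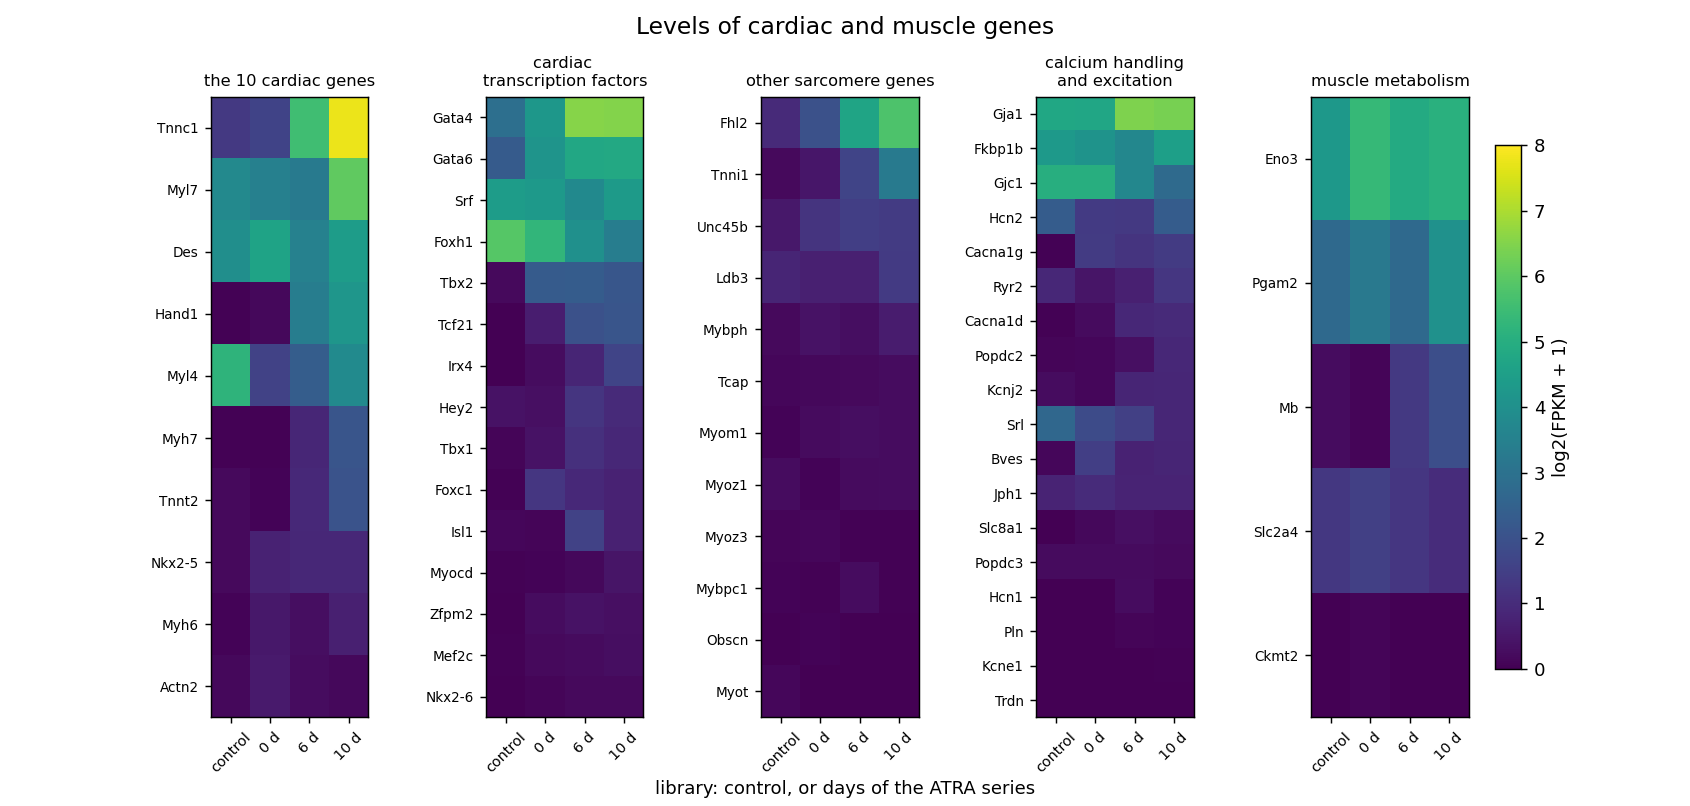
Levels as log2(FPKM + 1) of the 10 cardiac genes and of 4 lists of cardiac and muscle genes, in rows ordered by the 10-day level, with the control and the 0, 6 and 10 day libraries in columns. Tnnc1, Myl7, Gata4, Gata6, Gja1 and Fhl2 are bright at 10 days, while Actn2, Myh6, Mef2c, Pln and most other sarcomere rows stay dark in all 4 columns.

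The label of cardiac genes therefore met mixed markers. Of the 10 genes, 7 were at 1 FPKM or more at 10 days, among them Tnnt2 at 3.09 FPKM and Myl7 at 65.7 FPKM. The others, Myh6, Actn2 and Nkx2-5, were at 0.864 FPKM or less in every library. In whole embryoid bodies, more cells of a type and more RNA per cell cannot be told apart. Markers of other cells also moved in the ATRA series, not all of them in the same steps. Of 8 trophoblast markers held by the table, 3 were at 1 FPKM or more at 6 days and 6 at 10 days, none in the control or at 0 days, and their summed level was 0.359 FPKM in the control and 0.0469, 42.2 and 91.5 FPKM at 0, 6 and 10 days. Prl2b1 and Tpbpa, a placental prolactin and a marker of spongiotrophoblast, were at 29.4 and 28.0 FPKM at 10 days and were both listed at 0 at 0 days. Endoderm markers (9 of 12 in the table) summed to 183 FPKM in the control and to 347, 2503 and 3646 FPKM. Most of each sum was Sparc, a matrix protein, at 133 FPKM in the control and 259, 1862 and 2711 FPKM. Of the 9, 8 were higher and 1 lower at 6 days against 0 days (median log2 difference 2.76). The shares of all genes were 8.22% and 4.88%. At 10 days against 6 days 1 of the 9 was higher and none lower (median 0.20), beside shares of 3.70% and 0.850%.

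Muscle of other kinds gave a split picture. Skeletal muscle markers (14 of 23 in the table) summed to between 1.24 and 3.03 FPKM over the 4 libraries. Myf5, Myf6 and Myog, factors that specify and differentiate skeletal muscle, were at 0.0829 FPKM or less in every library. Smooth muscle markers (6 of 11 in the table) summed to 17.1 FPKM in the control and to 51.3, 105 and 221 FPKM at 0, 6 and 10 days. That sum was mostly Cnn2, a calponin that many cells other than muscle also make, at 9.53 FPKM in the control and 43.7, 94.3 and 205 FPKM, while Myh11, the smooth muscle myosin heavy chain, did not exceed 0.386 FPKM. Of the 3 that passed the filter, Cnn2 and Lmod1 were higher at 10 days against 0 days, where 14.4% of all genes were. Lmod1, a leiomodin of smooth muscle, was at 2.94 FPKM at 10 days and 0.689 FPKM at 0 days, and Smtn, smoothelin, at 12.02 FPKM at 10 days and 5.89 FPKM at 0 days.

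Fibroblast and matrix markers (7 of 11 in the table) summed to 42.7 FPKM in the control and to 53.9, 83.5 and 179 FPKM. At 10 days against 6 days 4 of 7 were higher, where 3.70% of all genes were. Col3a1 and Col1a1, fibrillar collagens, were at 42.5 and 42.8 FPKM at 10 days. Neuron markers went the other way in that step, with 3 of 5 lower at 10 days against 6 days, where 0.850% of all genes were. Of the 3, 1 passed the filter only through the 6-day library. The neuron markers summed to 34.5 FPKM at 10 days and 72.5 FPKM at 6 days. Of 3 endothelial and blood markers, Hba-x, an embryonic alpha-type globin, was listed at 0 in the control and at 0 days and was at 0.402 FPKM at 6 days and 6.99 FPKM at 10 days. Pecam1, listed as an adhesion molecule of endothelium, was highest in the control, as Pou5f1 was. It was at 21.1 FPKM in the control and at 1.37, 4.15 and 2.05 FPKM at 0, 6 and 10 days. Which cells held it was not tested. Hba-a1, an adult-type alpha globin, was at 1.98 FPKM at 10 days. The part of any of these cells in the levels of Tnnc1, Myl7 or Hand1 was not tested.

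**Figure D4:**
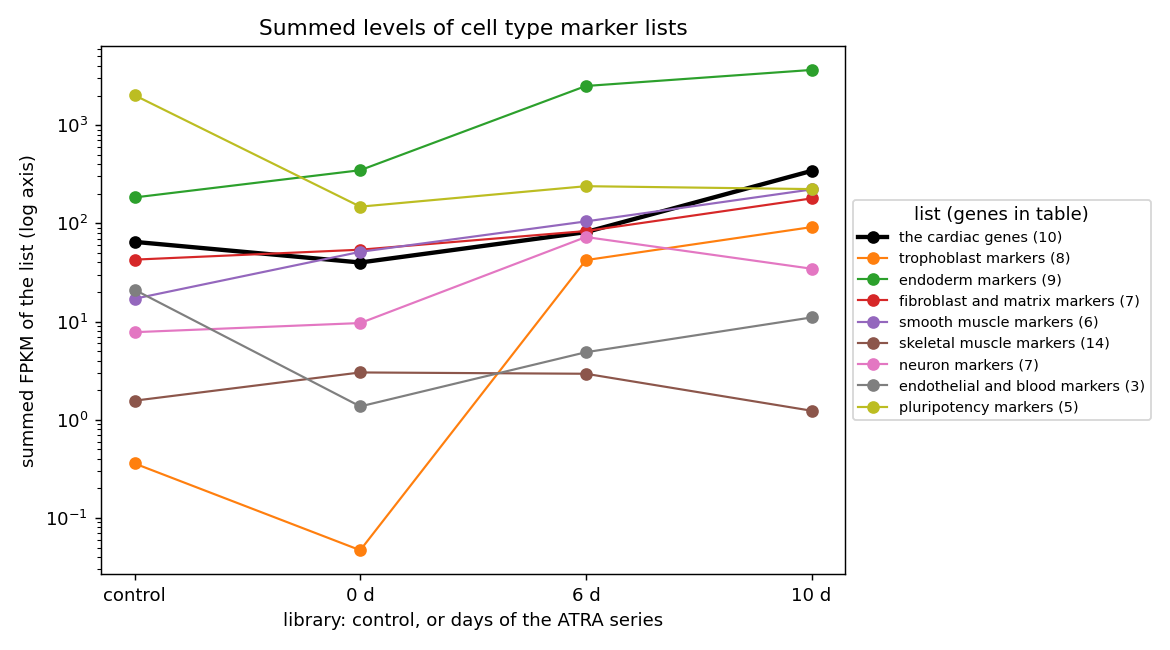
Summed FPKM (log axis) of the 10 cardiac genes and of marker lists of other cell types in the control and the 0, 6 and 10 day libraries; the legend gives the number of genes in the table. The cardiac genes sum to 64.8 FPKM in the control and 39.9, 81.4 and 342 FPKM in the ATRA series, trophoblast, endoderm and matrix lists are also highest at 10 days, and the skeletal muscle list stays at or below 3.03 FPKM. The endoderm sum is mostly Sparc.

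The genes with the most similar profile were sought among 4246 other genes at 5 FPKM or more, by the Euclidean distance between centred log2(FPKM + 1) values over the 4 libraries. Nearest to the mean of the 7 cardiac genes were Smim22 (distance 0.186), Ptges3l (0.271), Scgb3a1 (0.316), Hist1h2bc (0.321) and Fkbp11 (0.350). Nearest to Tnnt2 were Fkbp10 (0.160), Tnfrsf21 (0.171) and Egfr (0.190). Hand1 lay nearest to Krt15 (0.331), Spock1 (0.387) and Upk1b (0.428), and Krt15, a keratin, was at 0.0912 FPKM in the control and 0.398, 14.1 and 20.0 FPKM at 0, 6 and 10 days. With 4 libraries many genes can share a profile, and the likeness describes these values alone.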

How the data were processed

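RNA was sequenced in 4 libraries of mouse embryoid bodies, 1 per group, grouped by the protocol label. The deposited values are FPKM per gene, per the file headers, and each library has its own column. Per the submitters' processing notes, mm10 was the build and the tools included Trimmomatic, TopHat and Cufflinks, without versions. The sources used here do not give the annotation, strand setting or filter. Since FPKM divides by the library total, a few abundant transcripts lower all other values.

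The table had 10201 rows and 9997 symbols, and the values of 177 repeated symbols were summed. It covers part of the genome: symbols with a GENCODE position lie almost wholly on chromosomes 1 and 10 to 18, with at most 15 on any other. Genes outside the table were not analysed here, and shares of all genes refer to those in it that passed the filter. Gene positions and transcript lengths came from GENCODE M21 (mm10), promoters from RefSeq (GRCm38.p6). Depth was estimated from values between 0.02 and 0.05 FPKM times kb in genes with 1 transcript of 800 nt or more. Fragments behind a level use the main annotated transcript, so they are estimates.

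Differences used a pseudocount of 1 FPKM, a filter of 1 FPKM in at least 1 library and a 2-fold threshold, in 5 comparisons, with no test. The 12 lists held 209 entries, 109 of them in the table. All 10 members are named. Up to 5 genes of each cardiac list were named by their largest difference at 10 days against 0 days or the control, and the nearest profiles by distance. Genes of each other list were drawn from the 3 with the highest level, and not all of those are named. Tcap, Myom1, Mybpc1, Mybph, Myoz1, Myoz3, Irx4, Isl1, Mef2c, Myocd, Pln, Ryr2, Ckmt2, Myf5, Myf6, Myog, Myh11, Nisch and Mhrt were further named after their values were seen. The members and lists were chosen with earlier results of these data known. The calling steps were tested on simulated data, in which genes at a mean of 5 FPKM or more were changed 4-fold with counting error alone. That does not bear on changes of genes as low as Tnnt2 and Myh7 or on spread between replicates. Alternatives were 2 pseudocounts, 2 filters, 2 scalings, a 4-fold threshold and another treatment of repeated symbols. The scripts ran under Python 3.11.15 with scipy 1.17.1, pandas 2.3.3, numpy 2.4.6 and, for plots, matplotlib 3.10.9.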

Additional observations from a re-analysis of the deposited data

How the results depend on the processing

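Of 80 counts of higher or lower cardiac genes recomputed under the alternatives, 73 stayed within 1.5 times of the count reported, and no called difference changed sign. Part of this was fixed by construction. The treatment of repeated symbols cannot change a gene with a single row. Dropping the filter cannot add a call, since genes below 1 FPKM cannot differ 2-fold with 1 FPKM added. At 6 days against 0 days the number of higher genes was 5 with a pseudocount of 0.1 FPKM and 4 with 0.5 FPKM, against 2 with 1 FPKM. Tnnt2 and Myh7, near or below 1 FPKM there, were added with both. Myl4, at 1.98 FPKM at 0 days and 4.12 FPKM at 6 days, was added with 0.1 FPKM only. A 4-fold threshold left 0 lower genes in that step and 0 lower at 10 days against the control, and 2 higher at 10 days against 6 days (Tnnc1 and Myl7). A filter at 5 FPKM, which leaves out Tnnt2 and Myh7 by construction, gave 3 higher genes at 10 days against 6 days and 3 at 10 days against the control. Of 270 single differences, 20 moved by more than their counting error. The filters, the 4-fold threshold and the treatment of repeated symbols cannot move such a difference, so many of the 270 could not have moved. Median-ratio and upper-quartile scaling changed no call of a cardiac gene. They moved the median of all genes by 0.11 and 0.18 at 0 days against the control and by 0.15 and 0.08 at 10 days against the control, and upper-quartile scaling by -0.11 at 10 days against 6 days and by -0.12 at 10 days against 0 days. The share of higher among all called genes at 0 days against the control was 60.6% and 65.5% under the 2 scalings, against 48.9% as deposited, and under upper-quartile scaling 67.5% against 81.3% at 10 days against 6 days and 53.9% against 65.5% at 10 days against 0 days. No paired analysis was possible because each group has 1 library. At these depths a level resting on 3 fragments of a 1 kb transcript is 0.110 to 0.122 FPKM, and Hand1 in the control and Tnnt2 at 0 days and in the control rest on an estimated 1, 2 and 4 fragments.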

Other observations

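Among 5 genes of muscle metabolism in the table, Mb, the oxygen-binding protein myoglobin, was at 0.214 FPKM in the control and 0.0684, 1.51 and 2.79 FPKM at 0, 6 and 10 days. Pgam2, the muscle form of phosphoglycerate mutase, was at 15.4 FPKM at 10 days and at 5.72 FPKM at 6 days, a log2 difference of 1.28. Eno3, the muscle enolase, was highest at 0 days, at 40.0 FPKM, and was at 18.1 FPKM in the control. Ckmt2, the sarcomeric mitochondrial creatine kinase, was listed at 0 in the control and at 6 and 10 days and was at 0.0701 FPKM at 0 days. Of the 4 genes that passed the filter, 1 was higher at 10 days against 6 days and none lower. Over all genes the shares were 3.70% and 0.850%. Slc2a4, the insulin-responsive glucose transporter, stayed between 1.04 and 1.87 FPKM.

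Cacna1s, the calcium channel of skeletal muscle, was at 1.66 FPKM at 0 days and at 0.0620, 0.0616 and 0.0363 FPKM in the control and at 6 and 10 days. Actn2 was also highest at 0 days. No other skeletal muscle marker reached 1 FPKM there.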
